A study of Mus musculus with 11 samples.

Results

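Brain vessels of imatinib-treated mice were compared between 24 h and 3 h after occlusion of the middle cerebral artery (MCAO), a stroke model in which a main artery of the forebrain is blocked. The comparison used 5 of the 11 arrays of the series, 3 from vessels taken at 24 h and 2 from vessels taken at 3 h, and each gene was read from 1 probe set, the one with the highest mean over the 11 arrays. All mice were adult C57BL/6 males, and the RNA came from vascular fragments, pieces of vessel isolated from the hemisphere on the side of the occlusion. Imatinib at 24 h (n = 3) had been given 4 times and imatinib at 3 h (n = 2) 3 times. The effect of the additional treatment and the effect of time therefore cannot be told apart. Vessels of mice given phosphate-buffered saline (PBS) on the same schedules were taken at 24 h (n = 3) and at 3 h (n = 3) and served to set the imatinib time course against one without the drug. The labels do not say whether replicates came from separate animals, so the spread between samples may be technical. Each p-value weighs a difference against the gene's spread within the 4 groups of all 11 arrays, drawn towards that of other genes. Vessels without occlusion were not analysed here.

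The vessels of the brain carry a barrier made by endothelial cells that are sealed by tight junctions, loaded with transporters and kept in this state by Wnt signals and by pericytes, the contractile cells on capillary walls. After an occlusion, endothelium and resident macrophages release chemokines that bring monocytes and neutrophils to the wall, while stress hormones and hypoxia drive short-lived programmes in the first hours. Imatinib inhibits the kinases ABL and KIT and the receptors of platelet-derived growth factor (PDGF), through which endothelium recruits pericytes.

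Values are log2 array signals, so that a difference of 1 is 2-fold, and signals of different genes are not compared with each other. Array medians lay between 5.17 and 5.25, and the 25th percentile of the genes between 3.88 and 3.97. The medians were 5.17, 5.18 and 5.18 in imatinib at 24 h, against 5.23 and 5.21 in imatinib at 3 h. This small offset follows the comparison, and counts with arrays centred on their medians are given at the end. The number of arrays limits the precision. None of 20 endothelial markers lay below the 25th percentile on all 5 imatinib arrays. The same held for the astrocyte, microglia, monocyte and choroid plexus lists, so this check cannot tell endothelium from other cells. Pecam1, an adhesion protein of endothelial contacts, measured 11.51 ± 0.07 in imatinib at 24 h (SD, n = 3) and 11.50 ± 0.02 in imatinib at 3 h (SD, n = 2). Of 13 neuron markers, 1 lay below that percentile on all 5 arrays and none changed past the threshold. Differences were tested with limma on all 11 arrays and a gene is called when its Benjamini-Hochberg adjusted p over 30790 genes is below 0.05. Unless an array is named, each gene said to have risen or fallen also passed without each of the 11 arrays in turn, and each list count of 3 or more stayed within 1.5 times.

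Promoters are shown first for members of 4 groups that hold a motif of a regulator known for the group. The stretches run from 250 bases before to 50 bases after the annotated start, 5′ to 3′ on the strand of the gene, from RefSeq (GRCm38.p6), and the motifs were chosen after the values were seen. Capitals mark each match, on either strand, of the motif named for that gene, and matches of other motifs are left in lower case. Mcm5 (chr8:75109259-75109558, plus strand) and Mcm3 (chr1:20820263-20820562, minus strand), subunits of the helicase that opens DNA for replication, hold the E2F words TTTCCCGC, TTTCGCGC, TTTGCCGC or TTTGGCGC. Matches that share bases with each other, as in Mcm5, are marked as 1 run.
Mcm5: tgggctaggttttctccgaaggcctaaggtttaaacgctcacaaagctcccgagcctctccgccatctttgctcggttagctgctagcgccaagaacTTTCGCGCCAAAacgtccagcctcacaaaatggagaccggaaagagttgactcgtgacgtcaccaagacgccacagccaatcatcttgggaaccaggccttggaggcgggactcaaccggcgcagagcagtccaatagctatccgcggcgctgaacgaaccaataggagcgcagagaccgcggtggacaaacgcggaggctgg
Mcm3: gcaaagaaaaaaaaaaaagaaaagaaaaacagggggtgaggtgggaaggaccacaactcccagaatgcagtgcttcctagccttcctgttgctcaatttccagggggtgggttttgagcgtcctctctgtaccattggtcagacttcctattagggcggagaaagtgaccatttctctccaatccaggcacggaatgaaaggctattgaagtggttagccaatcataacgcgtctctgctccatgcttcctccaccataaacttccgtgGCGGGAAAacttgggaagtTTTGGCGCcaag
Of 28 DNA replication genes measured, 21 had an annotated promoter. In 10 of these genes at least 1 promoter held an E2F word (47.6%). This was so for 3.71% of the 13623 genes with a promoter outside predicted genes, small RNAs, receptor families and immune segments. Counted per promoter and not per gene, the share was 2.26% of all 32851 promoters. Pdia6 (chr12:17266339-17266638, plus strand), a disulfide isomerase of the endoplasmic reticulum (ER), and Creld2 (chr15:88819396-88819695, plus strand), an ER stress-inducible protein, hold the ER stress element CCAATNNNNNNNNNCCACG.
Pdia6: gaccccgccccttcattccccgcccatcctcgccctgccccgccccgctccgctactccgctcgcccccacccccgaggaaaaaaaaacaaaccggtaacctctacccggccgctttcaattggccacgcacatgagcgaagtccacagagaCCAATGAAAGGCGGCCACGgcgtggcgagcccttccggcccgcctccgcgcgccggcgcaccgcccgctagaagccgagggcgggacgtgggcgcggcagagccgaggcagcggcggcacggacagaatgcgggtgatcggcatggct
Creld2: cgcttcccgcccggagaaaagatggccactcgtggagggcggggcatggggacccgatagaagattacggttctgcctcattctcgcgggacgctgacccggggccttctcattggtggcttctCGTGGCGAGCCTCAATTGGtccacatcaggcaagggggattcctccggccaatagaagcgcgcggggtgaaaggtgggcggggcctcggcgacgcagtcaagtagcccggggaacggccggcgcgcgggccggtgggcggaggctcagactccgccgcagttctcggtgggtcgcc
That element was in 7 of 17 genes of the ER chaperone list with a promoter (41.2%), in 0.198% of the narrower set of genes and in 0.119% of all promoters. Nr4a3 (chr4:48045055-48045354, plus strand), a nuclear receptor of the immediate early class, holds the cAMP response core TGACGT, and Cxcl3 (chr5:90785851-90786150, plus strand), a chemokine that attracts neutrophils, holds the NF-kappa-B word GGGANTTTCC.
Nr4a3: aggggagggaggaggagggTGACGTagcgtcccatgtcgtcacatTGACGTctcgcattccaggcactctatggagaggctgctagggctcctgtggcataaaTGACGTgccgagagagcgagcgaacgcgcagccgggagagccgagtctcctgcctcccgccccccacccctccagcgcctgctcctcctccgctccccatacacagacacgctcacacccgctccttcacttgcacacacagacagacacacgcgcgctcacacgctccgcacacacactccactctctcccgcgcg
Cxcl3: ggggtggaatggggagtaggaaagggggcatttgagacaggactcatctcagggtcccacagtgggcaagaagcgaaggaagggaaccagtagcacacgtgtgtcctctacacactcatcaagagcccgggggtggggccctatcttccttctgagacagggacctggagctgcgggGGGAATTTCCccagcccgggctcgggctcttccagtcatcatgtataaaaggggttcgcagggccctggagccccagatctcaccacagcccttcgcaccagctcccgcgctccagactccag
The core TGACGT was in 10 of 25 immediate early genes with a promoter (40%), in 11% of the narrower set of genes and in 7.51% of all promoters. The NF-kappa-B word was in 4 of 18 cytokine and chemokine genes with a promoter (22.2%), in 0.587% of the narrower set and in 0.411% of all promoters. The glucocorticoid response element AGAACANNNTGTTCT was found in 1 of 16 genes of the glucocorticoid list with a promoter (6.25%), Sgk1, a kinase of salt and stress signalling. It was in 0.0147% of the narrower set of genes and in 0.00913% of all promoters. The share in the list rests on 1 gene and is not read as an enrichment. In the printed stretches no match of one motif overlapped a match of another. A match is a description of letters in this window and shows no binding.

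At 24 h with imatinib, 4027 genes passed the test (13.1% of those tested), 2389 of them higher (7.76%) and 1638 lower (5.32%). At least 2-fold differences were found in 815 genes (2.65%), 503 of them higher (1.63%) and 312 lower (1.01%). At least 4-fold differences were found in 93 genes (0.302%), 69 higher (0.224%) and 24 lower (0.0779%). Signals of 24 h and 3 h arrays were fully separated in 42.3% of the genes. Over all genes the median difference was -0.04 and 43.9% of genes lay above 0. The shares of all genes called are the background of each list count below. Only 1 or 2 calls in a list are not read as a change of that list. Without imatinib 3 h replicate 1 the count of calls was 2276 and without replicate 2 it was 2274, since either leaves a single array at 3 h; 1456 genes (36.2% of the calls) passed without each of the 11 arrays in turn.

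The 12 largest rises and falls were taken among called genes whose imatinib groups did not overlap. Predicted genes, small RNAs, receptor families and immune segments were left out. The largest rise was in Msr1, a scavenger receptor of macrophages. Its signals were 10.75, 10.53 and 10.48 in imatinib at 24 h, against 5.29 and 5.30 in imatinib at 3 h. The groups stood far apart and the difference was 5.29 ± 0.24 (SE), or 39.1-fold (adjusted p = 1.29e-06, limma). Spp1, osteopontin, a secreted adhesion protein of activated macrophages, had signals of 11.21, 11.29 and 11.14 at 24 h, against 6.91 and 7.09 at 3 h with imatinib. It rose by 4.21 ± 0.16 (adjusted p = 3.99e-07 in limma). Apln, which encodes the vascular peptide apelin, had signals of 10.14, 9.29 and 10.16 at 24 h, against 6.08 and 5.61 at 3 h. Replicate 2 was the lowest of the 24 h arrays and lay well above both 3 h arrays (4.02 ± 0.31, adjusted p = 2.52e-05 in limma). Lpl, lipoprotein lipase (3.54 ± 0.22), the inhibitory leukocyte receptor gene Lilrb4 (3.91 ± 0.33), AA467197 (3.52 ± 0.27) and the interferon-inducible gene Ifi204 (3.36 ± 0.29) were also among the 12 largest rises, with Cxcl3, Saa3, Ccl12, Chil3 and Ccl2, described with their groups.

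The largest fall was in Serpina3f, a serine protease inhibitor gene. Its signals were 4.28, 4.91 and 4.69 in imatinib at 24 h, against 8.32 and 7.35 in imatinib at 3 h, a difference of -3.21 ± 0.31 (adjusted p = 0.000106 in limma). Trp53inp1, a p53-induced protein of cell death and autophagy, had 5.47, 6.47 and 6.00 at 24 h, against 8.94 and 9.39 at 3 h (-3.18 ± 0.25). Both genes had 24 h arrays that varied more among themselves than those of Spp1. Doc2b, a calcium sensor of vesicle fusion, had 5.21, 5.31 and 5.35 at 24 h, against 8.14 and 8.06 at 3 h (-2.81 ± 0.15, adjusted p = 6.62e-06 in limma). Asb4, which encodes a protein with ankyrin repeats and a SOCS box (-2.41 ± 0.17), the uroplakin gene Upk1b (-2.40 ± 0.30), Tecrl (-2.28 ± 0.26), Tmcc3 (-2.22 ± 0.23) and the potassium channel gene Kcna5 (-2.22 ± 0.25) also fell. Zbtb16, Nr4a3, Rasd1 and Kif23 complete the 12 largest falls and are given below.

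**Figure D1:**
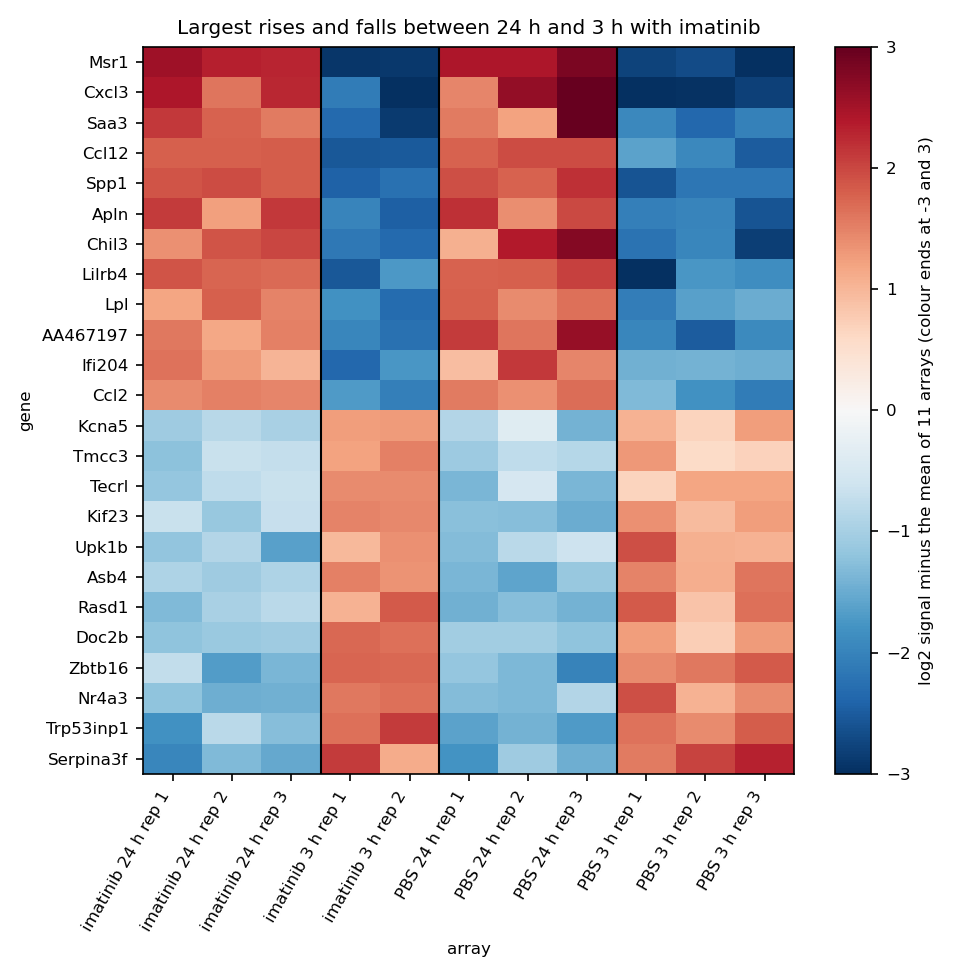
Log2 signal of the 12 largest rises and 12 largest falls (rows) on each of the 11 arrays (columns), shown as the difference from the gene's mean over all arrays; red is above and blue below that mean, and colours end at -3 and 3. Genes were chosen among those whose imatinib groups did not overlap, so the imatinib arrays are separated in each row by selection. The PBS arrays at the right, not used in that choice of direction, show the same direction for these genes.

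Chemokine genes were among the strongest rises. Of 27 cytokine and chemokine genes, 13 rose and 2 fell, with a median difference of 0.54. Ccl12, a monocyte attractant, had 11.87, 11.88 and 11.91 in imatinib at 24 h, against 7.53 and 7.57 in imatinib at 3 h. Arrays of the same time differed by at most a few hundredths, and the difference was 4.34 ± 0.20, or 20.2-fold (adjusted p = 1.29e-06 in limma). Ccl2, the main ligand of the monocyte receptor CCR2, rose by 3.33 ± 0.20 and its neighbour in function Ccl7 by 3.02 ± 0.21. Cxcl3, whose promoter is shown above, had 8.97, 8.16 and 8.80 at 24 h, against 4.45 and 3.41 at 3 h. The lower of the 3 h signals fell in the bottom 25% of genes on its array, and the rise of 4.71 ± 0.52 is therefore uncertain in size. Il1rn, the antagonist of the interleukin 1 receptor, rose by 2.33 ± 0.33, while Cx3cl1, fractalkine, a membrane-bound chemokine of neurons and endothelium, fell by 1.41 on the log2 scale (adjusted p = 0.000183 in limma). Cxcl12, a chemokine of the vessel wall, had a difference of -0.79 ± 0.16, which did not pass without imatinib 3 h replicate 2 (-0.76, adjusted p = 0.0617 in limma).

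Monocyte genes rose with the chemokines. Of 12 monocyte markers, 10 rose and none fell, with a median of 1.99. Ccr2, the receptor for CCL2, had 8.03, 8.89 and 8.85 in imatinib at 24 h, against 5.76 and 5.65 in imatinib at 3 h (2.89 ± 0.31, adjusted p = 0.000162 in limma). All 24 h arrays were at least 2 units above the 3 h arrays, and replicate 1 was the lowest of them. Chil3, a lectin of monocytes and macrophages, rose by 4.00 ± 0.41, Ms4a6c by 2.98 ± 0.22, Plac8 by 2.36 ± 0.28 and Ms4a4c by 2.20 ± 0.15. The mean signal of the list was 8.12 to 8.59 on the 24 h arrays, against 6.55 and 6.56 on the 3 h arrays. In such bulk samples, more cells of a type and more RNA per cell cannot be told apart, for rises as for falls. The part of monocytes in the rises of chemokines and macrophage genes was not tested.

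Lipid handling genes of macrophages also rose, 12 of 19 with none lower and a median of 0.91. Besides Msr1, Spp1 and Lpl, the fatty acid receptor gene Cd36 rose by 2.24 ± 0.21 and the fatty acid binding protein gene Fabp5 by 1.67 ± 0.20. Among 10 markers of border macrophages, which live at the vessels, 4 rose, the mannose receptor gene Mrc1 (1.5 ± 0.22) and the coagulation factor gene F13a1 (1.40 ± 0.21) among them. Microglia markers were mixed, with 2 of 12 higher and 2 lower, against 7.76% higher and 5.32% lower of all genes. Olfml3 rose by 0.86 ± 0.12 and Csf1r, the receptor that keeps microglia alive and an imatinib target, differed by -0.07 ± 0.11. Of 15 neutrophil markers 4 rose with a median of 0.37, but without imatinib 3 h replicate 2 only 1 did and the median was 0.13; it was 0.22 without imatinib 24 h replicate 2. Clec4d, a lectin receptor, passed without each array (2.37 ± 0.37). Cxcr2, the receptor for neutrophil chemokines, had 8.19, 8.39 and 8.13 at 24 h, against 6.66 and 6.06 at 3 h, and its difference of 1.88 ± 0.35 was 1.58 without imatinib 3 h replicate 2 (adjusted p = 0.0556 in limma). T and NK cell markers had 0 of 12 called and B cell markers 1 of 9, the transcription factor gene Ebf1 (-0.53), which mural cells also express. The Ebf1 call was lost without any one of 8 arrays, including all 5 imatinib arrays (largest adjusted p = 0.291 in limma).

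Of 18 leukocyte adhesion genes 6 rose and 1 fell, 2 of them higher without imatinib 3 h replicate 2. Itga4, the integrin subunit that binds endothelial VCAM-1, rose by 1.16 ± 0.14. Ackr1, a chemokine-binding receptor of venules, had a difference of 1.48 ± 0.32 that was 1.07 and did not pass without imatinib 3 h replicate 2 (adjusted p = 0.11 in limma). Of 17 acute phase genes 2 rose and 2 fell, against 7.76% higher and 5.32% lower of all genes. Saa3, serum amyloid A3, had 8.79, 8.44 and 8.22 in imatinib at 24 h, against 4.33 and 3.80 in imatinib at 3 h, and haptoglobin, Hp, rose by 1.90 ± 0.29, against the fall of Serpina3f. Saa3 on 3 h replicate 2 was also among the bottom 25% of genes, and its rise of 4.42 ± 0.47 is uncertain in size. Of 24 matrix protease and inhibitor genes 8 rose, and this count was 2 without imatinib 3 h replicate 1, and 5 without replicate 2 or without imatinib 24 h replicate 3. Adam8, a membrane protease of leukocytes (2.71 ± 0.20), and Timp1, a tissue inhibitor of metalloproteases (2.50 ± 0.34), rose, and Timp3, a matrix-bound inhibitor, had 11.32, 11.28 and 11.36 at 24 h, against 12.35 and 12.38 at 3 h (-1.04 ± 0.10). Of 15 complement genes 5 rose. That count was 1 without imatinib 3 h replicate 1 and 3 without replicate 2, and 2 and 3 without imatinib 24 h replicates 2 and 3. C5ar1, the receptor of the C5a peptide, rose by 0.83 ± 0.14, and Cd59a, which blocks the membrane attack complex, fell by 1.53 on the log2 scale.

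All 28 DNA replication genes lay above 0, 24 of them called, and the median was 0.98. Mcm5 had 7.34, 7.68 and 7.24 in imatinib at 24 h, against 5.6 and 5.08 in imatinib at 3 h (2.09 ± 0.17, adjusted p = 3.17e-05 in limma). Gins1, a part of the replication helicase complex, rose by 2.27 ± 0.20, Uhrf1, which guides DNA methylation to new strands, by 1.88 ± 0.15, Mcm3 by 1.86 ± 0.18 and Mcm6 by 1.62 ± 0.16. Mitosis genes moved less, with 7 of 22 higher and 1 lower and a median of 0.35 (0.23 without imatinib 3 h replicate 2); 4 were higher without imatinib 3 h replicate 1. Top2a, a topoisomerase of dividing cells, rose by 1.46 ± 0.13 and the kinase gene Cdk1 by 1.03 ± 0.14. Kif23, a kinesin of cell division, went the other way, with 6.10, 5.63 and 6.08 at 24 h, against 8.26 and 8.20 at 3 h (-2.29 ± 0.17). It is among the 12 largest falls, which were taken only from genes whose groups did not overlap.

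Of 25 ribosome biogenesis genes 23 were called higher, none lower, with a median of 0.82 and all 25 above 0. Utp20, a factor of small subunit processing, had 7.64, 7.58 and 7.69 in imatinib at 24 h, against 6.03 and 6.09 in imatinib at 3 h (1.57 ± 0.12, adjusted p = 2.66e-05 in limma), and the pseudouridine synthase gene Dkc1 rose by 1.57 ± 0.17. Of 20 ER chaperone and unfolded protein response genes 14 rose and 1 fell, with a median of 0.53. Sdf2l1, an ER chaperone cofactor, rose by 1.79 ± 0.21, Pdia6 by 1.44 ± 0.12, Creld2 by 1.43 ± 0.11, the chaperone gene Hyou1 by 1.34 ± 0.12 and calreticulin, Calr, by 0.99 ± 0.10. Of 30 proteasome genes 26 rose and none fell, by small amounts with a median of 0.47; without imatinib 3 h replicate 1 this was 14 genes and without replicate 2 it was 11. Psmd14, the deubiquitinase of the proteasome lid (0.90 ± 0.10), and the catalytic subunit gene Psmb5 (0.77 ± 0.10) passed without each array.

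**Figure D2:**
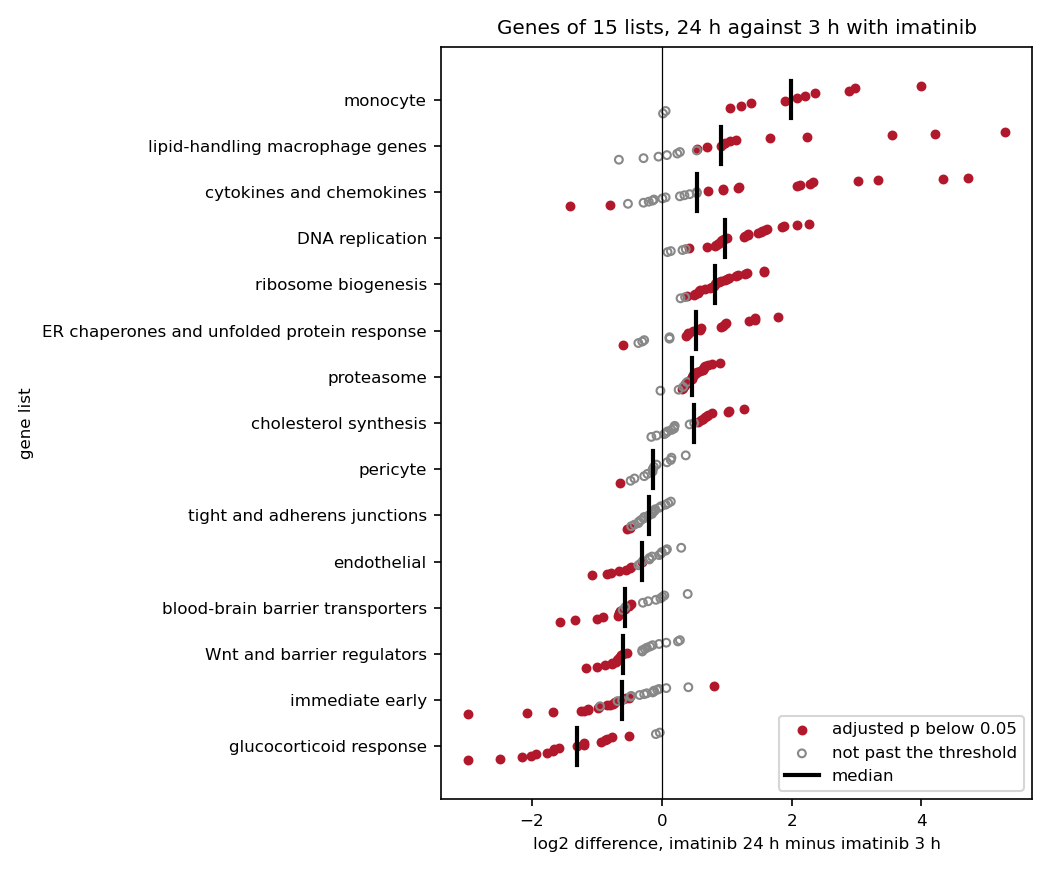
Log2 difference, imatinib 24 h minus imatinib 3 h (horizontal axis), of each gene of 15 lists (rows); red points passed the threshold, open points did not, and black bars are the medians. Monocyte, replication and ribosome genes lie to the right of 0, and glucocorticoid response genes to the left.

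Of 15 targets of ATF4, a stress-induced transcription factor, and genes of serine metabolism, 6 rose and 1 fell, led by Shmt2, the mitochondrial enzyme that makes glycine from serine, with 8.69, 8.79 and 9.10 in imatinib at 24 h, against 7.01 and 6.37 in imatinib at 3 h (2.17 ± 0.20). Aldh18a1, of proline synthesis, rose by 1.61 ± 0.18 and Psat1, of serine synthesis, by 1.26 ± 0.15. Of 21 cholesterol synthesis genes 10 rose and none fell, with a median of 0.50; the count was 6 without imatinib 3 h replicate 1 and 4 without replicate 2. Sqle, squalene epoxidase, rose by 1.26 ± 0.18, Fdps by 1.04 ± 0.13 and Idi1 by 1.02 ± 0.19. All 23 oxidative phosphorylation genes lay above 0 with a median of 0.26. Of these 7 were called, 1 without imatinib 3 h replicate 1, 2 without replicate 2 or without imatinib 24 h replicate 1, and 4 without imatinib 24 h replicate 2. Glycolysis genes had 5 of 16 higher and 2 lower, and 3 higher without either imatinib 3 h array. Pgk1 (1.10 ± 0.13) and Pkm (0.90 ± 0.12), the kinases of the pathway that make ATP, rose, and Pfkfb3, which makes the activator of phosphofructokinase, fell by 0.88 on the log2 scale. The pentose phosphate genes Taldo1 (0.84 ± 0.13), Tkt (0.82 ± 0.11) and Pgd (0.80 ± 0.15) rose within the antioxidant list, 6 of whose 17 genes were higher and none lower.

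Glucocorticoid response genes had the largest share of falls among the 52 lists. Of 19 genes 17 fell and none rose, the median was -1.31 and all 19 lay below 0. Zbtb16, a zinc finger repressor strongly induced by glucocorticoids, had 7.58, 6.65 and 6.94 in imatinib at 24 h, against 10.05 and 10.03 in imatinib at 3 h (-2.98 ± 0.27, adjusted p = 7.03e-05 in limma). The 3 h arrays were alike while the 24 h arrays spread over almost 1 unit. Rasd1, a dexamethasone-induced RAS protein, fell by 2.49 on the log2 scale. Fkbp5, a co-chaperone that dampens the glucocorticoid receptor, had 6.91, 6.30 and 6.59 at 24 h, against 8.65 and 8.85 at 3 h (-2.15 ± 0.19). Pdk4, a brake on glucose oxidation (-2.01 ± 0.26), the stress kinase gene Map3k6 (-1.94 ± 0.15), the clock gene Per1 (-1.68 ± 0.33) and the cell cycle inhibitor gene Cdkn1a (-1.31 ± 0.16) followed. Of 18 circadian clock genes 4 fell and none rose, with a median of -0.37; Bhlhe40 (-0.82 ± 0.10) and Rora (-0.79 ± 0.12), both regulators of clock transcription, were among them beside Per1.

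Immediate early genes fell as well, 17 of 33 with 1 higher and a median of -0.61; 11 were lower without imatinib 3 h replicate 1. Nr4a3 had 6.14, 5.87 and 5.89 in imatinib at 24 h, against 8.91 and 8.99 in imatinib at 3 h (-2.98 ± 0.23, adjusted p = 2.52e-05 in limma). Its relatives Nr4a1 (-2.07 ± 0.28) and Nr4a2 (-1.67 ± 0.19) fell too, as did the growth inhibitor gene Btg2 (-1.24 ± 0.18). Myc, a driver of ribosome production and growth, had 9.20, 9.10 and 9.39 at 24 h, against 8.67 and 8.20 at 3 h. Its difference of 0.80 ± 0.15 was 0.56 without imatinib 3 h replicate 2 (adjusted p = 0.0537 in limma). In the p53 response list 10 of 22 genes fell and 3 rose, or 1 without imatinib 3 h replicate 2, and the median was -0.39. The death receptor gene Fas (-1.64 ± 0.20) and the sestrin gene Sesn1 (-1.47 ± 0.17) fell beside Trp53inp1.

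Hypoxia response genes fell in 10 of 22 cases, and Apln was the 1 that rose (median -0.35). Ndrg1, a stress-responsive protein, had 9.66, 9.56 and 9.43 in imatinib at 24 h, against 11.45 and 11.40 in imatinib at 3 h (-1.88 ± 0.15, adjusted p = 3.39e-05 in limma). Ankrd37 (-1.57 ± 0.22), the collagen-modifying enzyme genes Plod2 (-1.39 ± 0.18) and P4ha2 (-1.39 ± 0.17), and the mitophagy receptor gene Bnip3 (-1.37 ± 0.19) fell. Heat shock genes moved in both directions. The cytosolic chaperone genes Hspa1b (-2.09 ± 0.31) and Hspa1a (-1.58 ± 0.24) fell, while the mitochondrial chaperone genes Trap1 (1.0 ± 0.12), Hspd1 (0.87 ± 0.14) and Hspa9 (0.59 ± 0.11) rose. Hsp90ab1, a cytosolic chaperone, was also called higher (0.36), but not without either imatinib 3 h array or imatinib 24 h replicate 2 or 3 (largest adjusted p = 0.176 in limma). Of 18 genes 5 rose and 6 fell; 3 rose without imatinib 24 h replicate 3 or imatinib 3 h replicate 2, and 2 fell without imatinib 3 h replicate 1. In NF-kappa-B feedback 5 of 17 fell and 1 rose. The count of falls was 3 without imatinib 24 h replicate 2 or without either imatinib 3 h array, and 2 without imatinib 24 h replicate 3; Irak3, a brake on Toll-like receptor signalling, had -0.93 ± 0.16.

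Of 23 Wnt and barrier regulators 13 fell and none rose, with a median of -0.59; 8 fell without imatinib 24 h replicate 3 or imatinib 3 h replicate 1. Fzd4, the receptor for Norrin, had 9.43, 9.52 and 9.84 in imatinib at 24 h, against 10.68 and 10.82 in imatinib at 3 h (-1.16 ± 0.19, adjusted p = 0.00206 in limma). Lef1, the transcription factor of Wnt signalling, fell by 0.88 on the log2 scale and Foxq1 by 0.76. Of 20 blood-brain barrier transporters 11 fell and none rose, with a median of -0.56. Slc19a3, a thiamine transporter, had 8.84, 9.42 and 8.89 at 24 h, against 10.65 and 10.56 at 3 h (-1.56 ± 0.19). The efflux pump gene Abcc4 (-1.33 ± 0.20), the receptor gene Lrp8 (-0.99 ± 0.16), the iron exporter gene Slc40a1 (-0.91 ± 0.11), the lipid transporter gene Mfsd2a (-0.66 ± 0.12) and the amino acid transporter gene Slc7a5 (-0.56 ± 0.11) fell. Tight and adherens junction genes changed little, with 2 of 19 lower, none higher and a median of -0.20. Both of them, Jam2 (-0.49 ± 0.12) and Marveld2 (-0.54 ± 0.15), were lost without either imatinib 3 h array (Jam2 -0.46 and -0.52, Marveld2 -0.51 and -0.56) or without imatinib 24 h replicate 3, and Marveld2 also without imatinib 24 h replicate 2. Cldn5, the main claudin of brain endothelium, measured 10.39 ± 0.04 in imatinib at 24 h (SD, n = 3) and 10.54 ± 0.18 in imatinib at 3 h (SD, n = 2), a difference of -0.15 ± 0.13. Without PBS 3 h replicate 1 the list had 4 genes lower.

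The endothelial markers themselves had 8 of 20 lower, none higher and a median of -0.30. The count was 3 without imatinib 3 h replicate 1, 4 without replicate 2 or without imatinib 24 h replicate 1, and 5 without imatinib 24 h replicate 3. Ly6c1 (-1.08 ± 0.16) and the lipid transfer protein gene Pltp (-0.78 ± 0.15) fell, while Cdh5, the cadherin of endothelial junctions, differed by -0.04 ± 0.11 and Pecam1 by 0.00 ± 0.11. Of 11 arterial markers 1 fell, and of 9 venous markers 1 rose (Ackr1) and 1 fell, against 7.76% higher and 5.32% lower of all genes. Venous markers included Tmem252, which fell (-0.98 ± 0.13). In the caveolae list, Sdpr, which shapes caveolae, fell by 1.25 on the log2 scale and the endocytosis gene Pacsin2 rose (0.55 ± 0.11). In the angiogenesis list 4 of 26 rose and 4 fell, and none fell without either imatinib 3 h array (1 without imatinib 24 h replicate 1 and 2 without replicate 2 or 3). Besides Apln, Angpt2, which loosens the vessel wall (1.32 ± 0.25), and the chemokine receptor gene Cxcr4 (0.89 ± 0.13) rose. In the coagulation list 6 of 21 rose and 2 fell: Plat, tissue plasminogen activator, and Thbd, thrombomodulin, an anticoagulant receptor of endothelium (-0.82 ± 0.12). In TGF-beta signalling 8 of 24 fell and 2 rose, 4 lower without imatinib 3 h replicate 1 and 5 without replicate 2 or any imatinib 24 h array. Tgfbr1, its receptor (-1.27 ± 0.15), Ltbp4, which anchors the latent ligand in the matrix (-1.22 ± 0.14), and the target gene Ctgf (-1.34 ± 0.23) fell, and Tgfbi rose by 2.56 ± 0.22. Among basement membrane genes 3 of 17 rose, 1 without imatinib 24 h replicate 3 or imatinib 3 h replicate 1, and 1 fell. Lamb1 (1.0) and Nid1 (0.92), structural members of the same membrane, were also called, but neither without imatinib 24 h replicate 3 or imatinib 3 h replicate 1, and Lamb1 not without imatinib 24 h replicate 1 or imatinib 3 h replicate 2 (largest adjusted p 0.0951 for Lamb1 and 0.118 for Nid1 in limma). The laminin gene Lama4, of endothelial basement membranes, had 9.25, 9.22 and 9.25 at 24 h, against 7.86 and 7.92 at 3 h (1.35 ± 0.15, adjusted p = 0.000182 in limma), whereas Lama5 fell by 0.69 on the log2 scale.

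**Figure D3:**
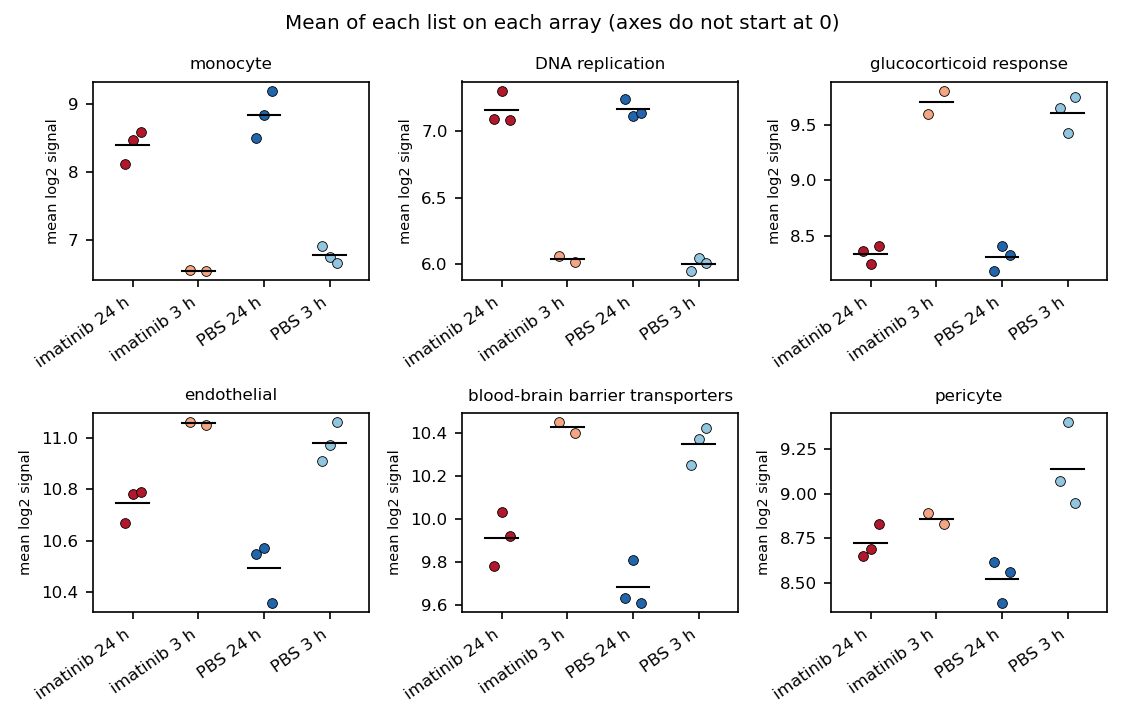
Mean log2 signal of 6 gene lists on each of the 11 arrays (points), by group, with the group mean as a bar; axes do not start at 0. Monocyte and replication scores are higher and glucocorticoid, endothelial and transporter scores lower on the 24 h arrays of both treatments, while pericyte scores of the imatinib groups meet at 8.83.

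Of 17 genes for kinases that imatinib inhibits and for the PDGF axis, 2 were called higher and 2 lower. Of all genes 7.76% were higher and 5.32% lower. The list's median of -0.06 was 0.06 without imatinib 3 h replicate 1. Kit, the receptor for stem cell factor, had 8.77, 7.28 and 7.72 in imatinib at 24 h, against 6.23 and 5.94 in imatinib at 3 h. Replicate 1 was the highest of the 24 h arrays by about 1 unit; the difference of 1.84 ± 0.37 (adjusted p = 0.00664 in limma) was 1.70 without imatinib 3 h replicate 2 (adjusted p = 0.0614). Plat, whose product also activates the ligand PDGF-C, had 10.43, 9.26 and 9.70 at 24 h, against 11.57 and 11.46 at 3 h (-1.72 ± 0.27, adjusted p = 0.00172 in limma). Pdgfra, the PDGF receptor of fibroblasts and oligodendrocyte precursors, had 5.21, 5.20 and 5.06 at 24 h, against 4.60 and 4.42 at 3 h. Its difference of 0.65 ± 0.19 passed narrowly (adjusted p = 0.0424 in limma) and failed without either imatinib 3 h array (0.74 and 0.56), any imatinib 24 h array, replicate 2 of PBS at 24 h or replicate 3 of PBS at 3 h. The ligand gene Pdgfd had -1.02 ± 0.20 and failed without imatinib 3 h replicate 2 (-0.96, adjusted p = 0.0562 in limma). Pdgfrb, the pericyte receptor, had 8.48, 8.66 and 8.72 at 24 h, against 8.55 and 8.41 at 3 h, and these groups overlapped (0.14 ± 0.19). The differences were 0.25 ± 0.14 for Ddr1, 0.21 ± 0.14 for Ddr2, -0.05 ± 0.19 for the ligand gene Pdgfc and -0.06 for both Abl1 and Abl2, none past the threshold.

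The time course with imatinib was then set against the one with PBS. The differences share no array, but both tests used the same estimate of each gene's spread, from the arrays of both treatments. A gene with a small spread is thus more readily called in both, and the overlap of calls is not one between independent tests. With PBS 5119 genes were called (16.6%), 2877 higher (9.34%) and 2242 lower (7.28%). Of the imatinib calls 3111 were called in the same direction with PBS, 77.3% of the imatinib calls and 60.8% of the PBS calls. Another 910 were called with imatinib alone, of which 793 had a PBS difference of the same sign. Across all genes the time differences had a Pearson's r of 0.79, a description over genes, which are not independent replicates. The test of the difference between them, the interaction (imatinib time difference minus PBS time difference), called 0 genes in limma, with a smallest adjusted p of 0.371. At an unadjusted p below 0.05 there were 1690 genes (5.49%). No call with imatinib alone is therefore shown to differ from PBS.

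**Figure D4:**
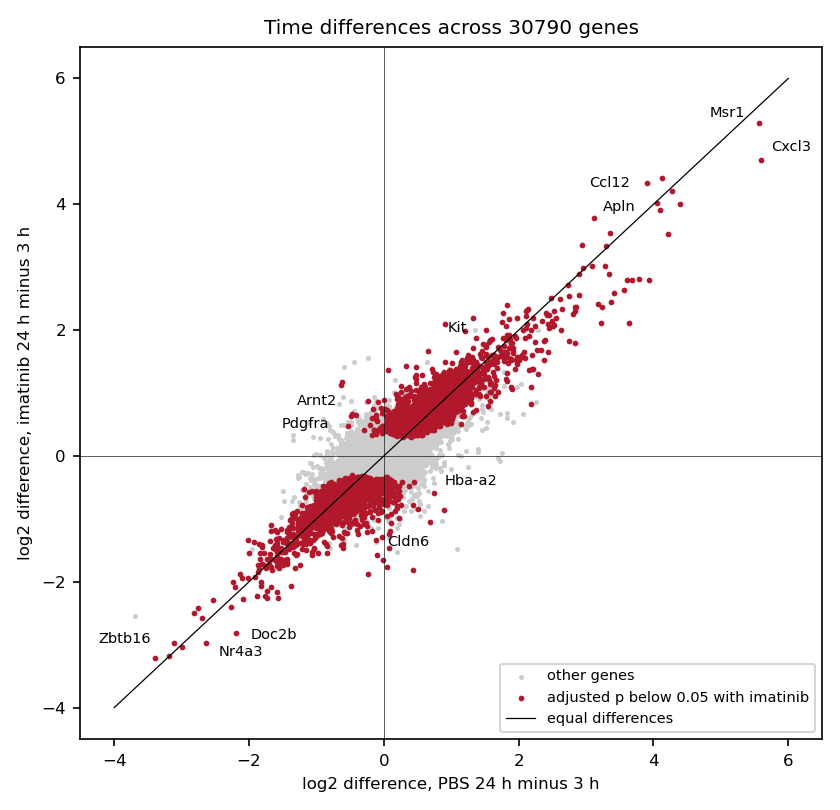
Log2 difference between 24 h and 3 h for each of 30790 genes, with imatinib (vertical axis) and with PBS (horizontal axis); red points passed the threshold with imatinib and the line marks equal differences. Msr1 lies near the line, at 5.29 with imatinib and 5.57 with PBS, while Cldn6 and Hba-a2 lie away from it.

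Outside predicted genes, small RNAs, receptor families and immune segments, the genes with the smallest interaction p in each direction are given as values, since none passed. Cldn6, a claudin of epithelia, had 3.79, 3.55 and 3.88 in imatinib at 24 h, against 5.42 and 5.19 in imatinib at 3 h. Its PBS signals were 3.68, 4.16 and 3.98 at 24 h, against 4.12, 3.95 and 4.05 at 3 h. Only the imatinib 3 h arrays stood out, the imatinib 24 h signals were among the bottom 25% of genes, which leaves the sizes uncertain, and the interaction was -1.47 ± 0.20 (adjusted p = 0.371 in limma). Arnt2, a partner of bHLH-PAS transcription factors, had 6.23, 5.99 and 5.90 in imatinib at 24 h, against 5.35 and 5.46 in imatinib at 3 h, and 5.75, 5.62 and 5.82 in PBS at 24 h, against 6.30, 6.29 and 6.07 in PBS at 3 h. It was called in opposite directions (0.64 ± 0.13 with imatinib and -0.49 ± 0.11 with PBS), although its imatinib call was lost without imatinib 3 h replicate 1 (0.58, adjusted p = 0.066 in limma). Ano1, a chloride channel of contractile cells, differed by -0.03 ± 0.12 with imatinib and by -0.80 with PBS. Nkain2 (interaction 0.87 ± 0.17), AU041133 (1.01 ± 0.22), Atcayos (-0.79 ± 0.16) and the triglyceride synthesis gene Dgat2 (-0.70 ± 0.14) did not pass either (smallest adjusted p of these 0.639 in limma). In all 6 genes were called in opposite directions. Besides Arnt2 these were the haemoglobin gene Hba-a2, Cyp2d13, the olfactory receptor gene Olfr116 (interaction -1.21 ± 0.18, adjusted p = 0.371 in limma), the microRNA gene Mir5103 (-1.76 ± 0.28, adjusted p = 0.386) and the predicted gene Gm25272 (-0.86 ± 0.16, adjusted p = 0.567). Cyp2d13 had 3.96, 4.29 and 3.76 at 24 h, against 3.55 and 3.51 at 3 h with imatinib, near the 25th percentile, and its imatinib call (0.48 ± 0.14) was lost without any of 10 of the 11 arrays (0.33 to 0.60).

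Of 13 pericyte markers 1 was called lower with imatinib and none higher, with a median of -0.14 (-0.08 without imatinib 3 h replicate 1, and -0.09 without imatinib 24 h replicate 1 or 2), whereas with PBS 10 were lower and the median was -0.67. The imatinib call was Foxc1, a transcription factor of mural cells (-0.65 ± 0.13, and -0.55 with an adjusted p of 0.077 in limma without imatinib 3 h replicate 1). The interaction lay above 0 in 13 of 13 genes, against 48.3% of all genes, with a median of 0.52 against -0.01 for all genes, and had an unadjusted p below 0.05 in 8 of them; none passed adjustment. Rgs5, a regulator of G-protein signals in pericytes, had 11.67, 11.68 and 11.69 in imatinib at 24 h, against 11.90 and 11.89 in imatinib at 3 h. In PBS it had 11.41, 11.30 and 11.36 at 24 h, against 12.04, 12.28 and 11.93 at 3 h. The imatinib groups lay between the PBS groups, and its differences were -0.22 ± 0.11 with imatinib and -0.73 ± 0.10 with PBS (interaction 0.52 ± 0.15, unadjusted p = 0.00579). For Pdgfrb the PBS signals were 8.41, 8.16 and 8.43 at 24 h, against 8.65, 9.38 and 8.78 at 3 h, and for Abcc9, a potassium channel subunit, they were 8.94, 8.11 and 8.61 at 24 h, against 9.05, 9.95 and 9.17 at 3 h. PBS 3 h replicate 2 was the highest in these genes. Without it the list's median interaction was 0.42, with 13 of 13 above 0 and 5 at an unadjusted p below 0.05; without each of the other 10 arrays in turn the median was 0.49 to 0.62, with 12 or 13 above 0 and 4 to 9 at an unadjusted p below 0.05. The mean of the list was 8.65 to 8.83 in imatinib at 24 h and 8.83 to 8.89 in imatinib at 3 h, and 8.39 to 8.62 in PBS at 24 h and 8.95 to 9.40 in PBS at 3 h. The list called 3 genes lower with imatinib without PBS 3 h replicate 3.

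**Figure D5:**
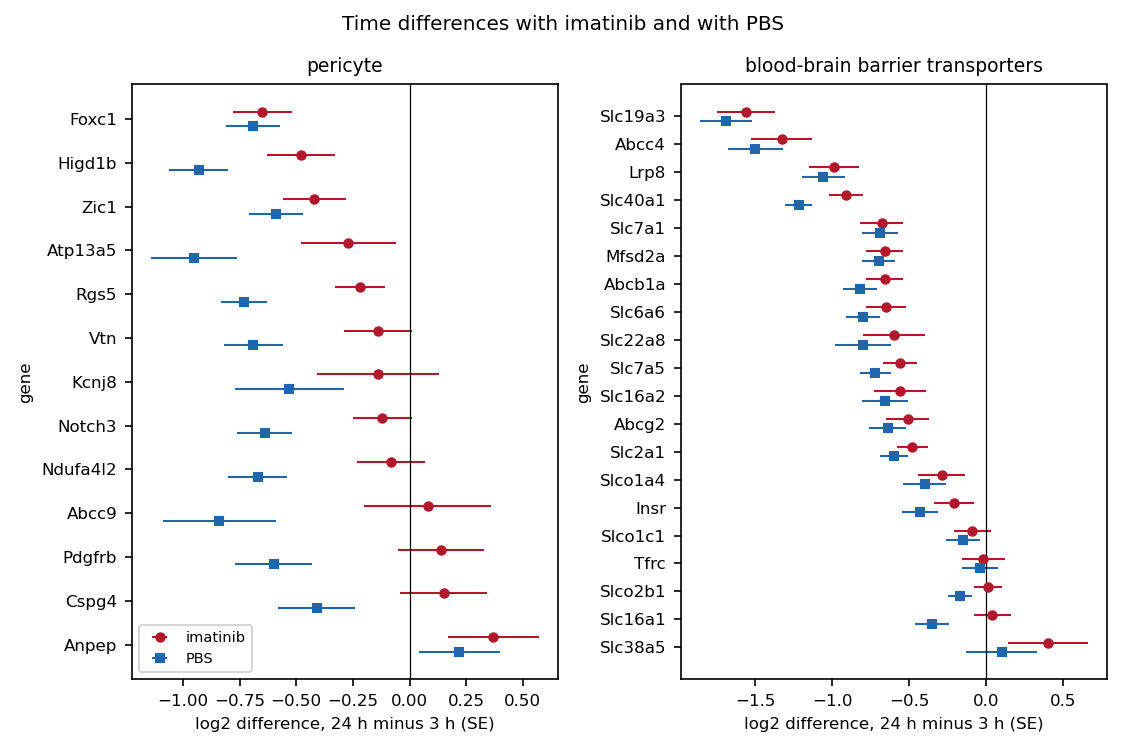
Log2 differences between 24 h and 3 h with their SE for 13 pericyte markers (left) and 20 blood-brain barrier transporters (right), imatinib in red above PBS in blue. Imatinib lies to the right of PBS for each gene, by a median of 0.52 for the pericyte markers and 0.14 for the transporters.

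Other lists also had most interactions above 0, and not only those of vessels. With all arrays the interaction was above 0 in 11 of 13 astrocyte markers (median 0.24), but in 7 without PBS 24 h replicate 2. The same was so in 10 of 11 oligodendrocyte (0.24), 11 of 12 microglia (0.11) and 7 of 9 choroid plexus markers (0.46). Without single arrays the oligodendrocyte median was 0.04 to 0.37, with 8 to 10 above 0. The microglia median was then 0.04 to 0.21, with 8 to 12 above 0. The mean of the choroid plexus list was 6.42 and 7.42 on the imatinib 3 h arrays. Monocyte markers had 2 of 12 above 0 (-0.10), and 1 to 5 without single arrays (medians of -0.25 to -0.03). Vessel lists are given next. In 11 of 11 arterial markers the median was 0.36 (as low as 0.23, without PBS 3 h replicate 3, and as high as 0.56, without PBS 24 h replicate 2), and in 15 of 17 basement membrane genes it was 0.28. In 11 of 12 smooth muscle markers it was 0.24, but -0.14 without imatinib 3 h replicate 1 and -0.03 without PBS 24 h replicate 3. In 9 of 9 venous markers it was 0.13, and 0.01 to 0.37 without single arrays, with 5 to 9 above 0. The interaction lay above 0 in 20 of 20 endothelial markers (median 0.17, and 0.1 without PBS 24 h replicate 3), with 0 at an unadjusted p below 0.05. It did so in 20 of 20 transporters (median 0.14, 1 gene), which share Slc2a1, Slco1a4 and Mfsd2a with those markers, and in 17 of 19 junction genes (median 0.20, 0 genes). Of all genes 48.3% lay above 0 and 5.49% had an unadjusted p below 0.05. Genes of a list, as for the pericyte markers, are not independent replicates. The transporter median was 0.08 without imatinib 24 h replicate 2, with 15 of 20 above 0, and 0.08 without PBS 24 h replicate 1, with 18 above 0. It was 0.21 without PBS 24 h replicate 2 or imatinib 24 h replicate 1. With imatinib 3 of 22 interferon response genes rose and 2 fell, and 3 of 13 antigen presentation genes rose. Without either imatinib 3 h array or imatinib 24 h replicate 2 or 3, each of these counts of rises was 0 or 1. In the interferon genes the interaction lay above 0 in 18 (median 0.37, and 0.17 without PBS 3 h replicate 1), and 4 had an unadjusted p below 0.05. That count was 1 without imatinib 3 h replicate 1, PBS 3 h replicate 1 or PBS 24 h replicate 3, 2 without PBS 24 h replicate 1, imatinib 24 h replicate 2 or 3 or imatinib 3 h replicate 2, and 7 without PBS 24 h replicate 2. Erythroid genes leaned the other way in 5 of 5 (median -0.75), 4 at an unadjusted p below 0.05 with all arrays and without each array in turn. Hba-a2 had 9.87, 9.84 and 10.21 in imatinib at 24 h, against 10.46 and 10.67 in imatinib at 3 h, and 10.38, 10.57 and 10.87 in PBS at 24 h, against 10.00, 9.94 and 9.63 in PBS at 3 h. The imatinib call of Hba-a2 (-0.59 ± 0.17) was lost without imatinib 24 h replicate 1 or 2, either imatinib 3 h array, PBS 24 h replicate 2 or PBS 3 h replicate 2 (-0.48 to -0.71 over all 11 omissions). Hbb-b2 (-0.43 ± 0.16 with imatinib and 0.75 ± 0.14 with PBS) had the same order of groups. Near-identical globin genes may share these probes, and the part of blood left in the vessels was not tested.

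Of 13 astrocyte markers 4 fell and 1 rose, with a median of -0.29. The count of falls was 1 or 2 without any one of imatinib 24 h replicates 1 and 2 and both imatinib 3 h arrays, and 0 without imatinib 24 h replicate 3. The rise was Gfap, the filament of reactive astrocytes, with 7.59, 6.79 and 7.37 in imatinib at 24 h, against 5.69 and 5.84 in imatinib at 3 h (1.49 ± 0.26, adjusted p = 0.0031 in limma). Among oligodendrocyte genes Mal, a membrane raft protein, fell by 1.2 on the log2 scale and the other 10 did not pass. Perivascular fibroblast markers had 2 of 12 higher and 1 lower, and oligodendrocyte precursor markers 2 of 9 higher and 1 lower, with Pdgfra in both. Of all genes 7.76% were higher and 5.32% lower, and counts this small are not read as a change of a list. Smooth muscle markers had 2 of 12 lower, Smtn (-1.0 ± 0.16) among them. Choroid plexus markers had 0 of 9 called, and their median of -0.22 ran from -0.58 to 0.35 when single arrays were left out.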

How the data were processed

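RNA from vascular fragments was amplified from 10 ng and measured on arrays, per the labels' protocols. The authors deposited log2 expression values made with Affymetrix Expression Console and RMA, per the submitters' processing notes; limma is also named there. Array type, genome build and tool versions were not given in the sources used here. Rows with 1 symbol were kept, 30790 genes. limma 3.58.1 in R 4.3.3 fitted 4 group means to 11 arrays, with moderated variances and Benjamini-Hochberg adjustment over all genes; Python 3.11.15 and matplotlib 3.10.9 drew the figures. The script was tested on simulated data. The members and the 52 lists were chosen with earlier results of these data known. Genes were named by rule: the 12 largest rises and falls with groups that did not overlap, up to 5 list members per direction, the genes with the smallest interaction p, fixed imatinib targets and any cell type marker. Predicted genes, small RNAs, olfactory and vomeronasal receptors and immune segments were not named for size. The column numbers skip 6. Alternatives were normalizations, filters, model options and left-out arrays.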

Additional observations from a re-analysis of the deposited data

How the results depend on the processing

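Leaving out single arrays gave 2274 to 4233 genes past the threshold for imatinib 24 h minus 3 h, against 4027 with all arrays, and 0 to 2 for the difference from the PBS time course. The 2 were Mir290a (-2.92) and Gm23421 (-1.96), without imatinib 3 h replicate 2. Imatinib 3 h replicate 1 then stood alone at 5.06 and 4.38, and the other arrays lay between 2.25 and 3.02 for Mir290a and between 2.33 and 2.66 for Gm23421. A test against a 1.2-fold change in place of 0 called 1378 genes, 881 higher and 497 lower. The count was 3750 from the 5 imatinib arrays alone, 4015 with probe sets averaged, 4267 with dim genes removed, 3852 after quantile normalization (2084 higher and 1768 lower), 4055 with arrays centred on their medians (2675 higher and 1380 lower; 66% higher, against 59.3% in the values reported), 4573 with a trended robust variance and 4156 without predicted genes. No gene named by rule that was called under either setting changed direction; the uncalled Abl1, Ano1, Dgat2 and Pdgfc changed sign under some alternatives. Same-numbered arrays did not deviate together (r of -0.037 to 0.058). These are deviations from group means of only 2 or 3 arrays, so whether same-numbered samples share more than a number cannot be told. With the replicate number as a block, 3379 genes passed for the imatinib time difference and 0 for the interaction. With 2 arrays at 3 h, small differences near the threshold are the least settled.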
